A study of Mus musculus with 4 samples.

Results

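SEA and LPS were each given alone and together to dendritic cells, and every measured gene was described by how far its signal under both agents departed from the sum of its 2 single differences. Total RNA came from CD11c+ dendritic cells carrying the IL10-/- genotype, so by label all 4 groups lack interleukin 10. Each group was 1 sample on 1 array after 6 h, either without an added agent (MEDIA), with SEA, with LPS, or with both (SEA/LPS). The labels put all samples in the same lot and do not expand SEA. The sources used here do not state doses, the strain, sex and age of the mice, the tissue or culture that gave the cells, the design of the IL10 allele or whether separate cultures or animals were used. The departure of a gene was (SEA/LPS minus LPS) minus (SEA minus MEDIA) on log2 signals, with signals below 33.3 set to that floor. Genes were taken from non-control probe sets with exactly 1 gene symbol and a signal above the floor on at least 1 array. That left 14423 probe sets for 9473 of the 12393 genes named on the array, and a gene with several probe sets took the value of the brightest.

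LPS, a component of the outer membrane of Gram-negative bacteria, is sensed by the receptor TLR4 with its partners MD-2 and CD14. The adaptor MyD88 then leads to NF-kappaB and MAP kinases, which drive inflammatory cytokine and chemokine genes, and the adaptor TRIF leads to IRF3 and interferon beta, which acts on neighbouring cells through factors that include STAT2 and IRF9. Dendritic cells answer LPS by maturing, presenting antigen and releasing cytokines such as IL-12 that direct T cells.

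A departure of 0 means that the fold difference between SEA and MEDIA was the same as that between SEA/LPS and LPS. A departure of -1 means that the SEA/LPS signal was 2-fold below the value that equal fold differences would give, called the additive value here, and a departure of 1 that it was 2-fold above. With 1 array per group no departure has a replicate error and none was tested, so genes were counted by size, at 2-fold or more. A signal at the floor is only an upper limit. A gene was therefore counted lower only if its LPS and SEA signals were above the floor, and higher only if its SEA/LPS and MEDIA signals were. Where another term was at the floor, the departure is a limit. The gauges of error are technical only. Hybridisation controls, which report RNA added in fixed amounts, are described below. The other gauge compares 2 probe sets of a gene on the same arrays. Over 2225 genes the SD of their difference in departure, divided by the square root of 2, was 0.49. The median absolute difference was 0.41.

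Signals are given throughout in the order MEDIA, SEA, LPS and SEA/LPS. The targeted gene Il10, which encodes an anti-inflammatory cytokine, read 37.9, 52.1, 303.6 and 93.0. It was above the floor on all 4 arrays and highest with LPS alone. The labels do not say where its probe set lies relative to the deleted part, so its signal checks no label. Itgax, which encodes CD11c and is named after its value was seen, read 2731.7, 2180.8, 1850.7 and 2093.3. Of 20 measured dendritic cell identity genes, 17 to 20 were above the floor on each array. Their summed signal ran from 21068.1 with SEA to 23982.8 with LPS. Of 12 T cell markers 4 were measured, with a summed signal of 1521.9 to 2193.8 that was mostly Il7r (1081.3 to 1790.6) and Zap70 (244.3 to 369.5); the T cell receptor genes Cd3d, Cd3e and Cd3g were not among the measured genes.

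The sequences upstream of 4 genes with large negative departures show motifs for the factors that LPS activates. They are the 250 bases before the transcript start from RefSeq, on the plus strand of mouse build GRCm38.p6, and these genes were chosen after matches had been seen. Capitals mark a match to the kappaB consensus, bound by NF-kappaB, in Il6 (chr5:30012864-30013113), Cxcl1 (chr5:90890995-90891244) and Ebi3 (chr17:55952373-55952622). In Stat2 (chr10:128270248-128270497) they mark the core of the interferon-stimulated response element, searched as GAAA, any 2 bases, GAAA, and matched here on the reverse strand.
Il6: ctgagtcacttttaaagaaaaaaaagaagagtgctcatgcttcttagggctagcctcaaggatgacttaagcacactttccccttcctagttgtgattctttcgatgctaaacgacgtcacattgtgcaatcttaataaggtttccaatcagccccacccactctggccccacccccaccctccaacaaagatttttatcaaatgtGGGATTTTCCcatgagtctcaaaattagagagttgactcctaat
Cxcl1: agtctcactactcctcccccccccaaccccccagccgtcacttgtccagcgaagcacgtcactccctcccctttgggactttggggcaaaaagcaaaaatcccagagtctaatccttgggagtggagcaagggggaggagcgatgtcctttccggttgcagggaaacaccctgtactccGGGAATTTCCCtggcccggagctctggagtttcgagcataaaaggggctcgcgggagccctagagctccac
Ebi3: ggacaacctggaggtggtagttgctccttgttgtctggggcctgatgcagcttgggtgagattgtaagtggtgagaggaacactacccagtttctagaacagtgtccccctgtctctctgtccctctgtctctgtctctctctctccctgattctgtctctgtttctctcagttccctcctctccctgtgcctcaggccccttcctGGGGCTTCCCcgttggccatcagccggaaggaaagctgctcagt
Stat2: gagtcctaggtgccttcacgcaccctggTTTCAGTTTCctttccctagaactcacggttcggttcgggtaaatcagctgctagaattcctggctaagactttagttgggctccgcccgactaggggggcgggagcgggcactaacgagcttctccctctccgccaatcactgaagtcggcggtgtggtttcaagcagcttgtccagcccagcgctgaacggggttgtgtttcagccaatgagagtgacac
The kappaB match lay 44 to 35 bases before the start in Il6 and in Ebi3, and the overlapping matches on both strands of Cxcl1 covered bases 71 to 61. The Stat2 match lay 222 to 213 bases before the start. Both motifs were searched on both strands. Of 7694 measured genes with a promoter entry, 845 (11.0%) held a kappaB match and 269 (3.5%) the response element core. Among genes counted lower with an entry, 55 of 454 (12.1%) held a kappaB match and 16 (3.52%) the core. Among genes counted higher, 33 of 234 (14.1%) and 6 (2.56%) did. A match describes letters and not a bound site. The windows of Il12b, Il12a, Il1b, Ccl3 and Gadd45b held neither motif, which says only that these letters are not in this window.

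Most genes stood near additivity. The median departure of the 9473 genes was -0.06 with an SD of 0.60, and 63.1% of them lay within 0.5 of 0. The 5th percentile was -1.09 and the 95th 0.86. Counted genes numbered 282 higher (2.98% of measured genes) and 587 lower (6.2%). Of these, 71 higher and 165 lower genes were counted through a limit. Over the 7142 genes above the floor on all 4 arrays, 211 (2.95%) were higher and 422 (5.91%) lower. Lower genes outnumbered higher ones except with the arrays scaled to the hybridisation controls, where 751 were higher and 222 lower. The counted genes were 32.5% higher ones, and this share was 42.3% with scaling to the 75th percentile, 46.4% with quantile normalization and 77.2% with the hybridisation controls. It was 48.5% when the linear signals, not the log2 signals, were taken to add, and 48.6% when each departure was centred on genes of like signal. The all-gene median, -0.06 as deposited, became 0.22 when arrays were scaled to the hybridisation controls, so medians of gene lists are set against it.

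**Figure D1:**
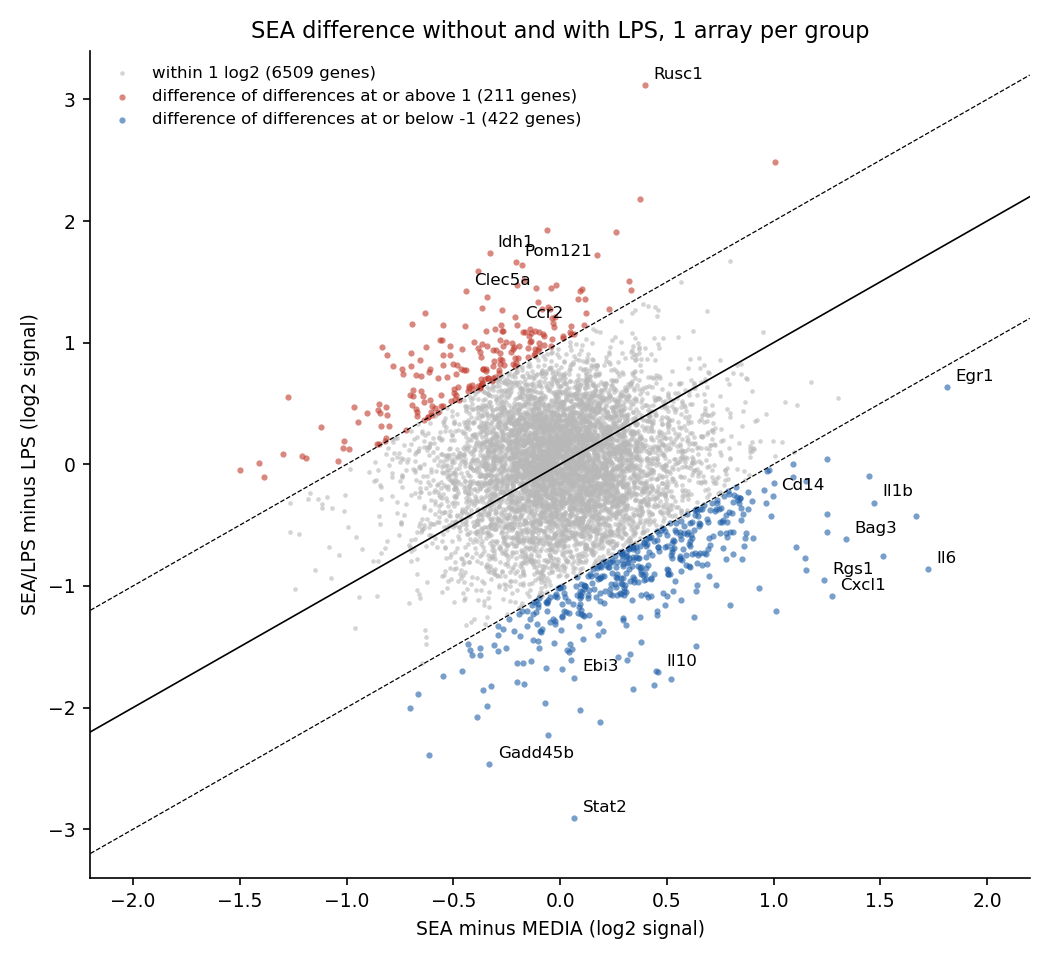
Each point is 1 of the 7142 genes above the floor on all 4 arrays, placed by its SEA difference without LPS (horizontal, log2) and with LPS (vertical, log2); the solid line marks equal differences and the dashed lines a departure of 1 either way. The 422 genes counted lower (blue) lie under the lower dashed line, with Stat2 at 0.07 and -2.91, and the 211 counted higher (red) lie above the upper one.

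The largest departure among genes above the floor on all 4 arrays was that of Stat2, which carries the interferon signal to the nucleus. Its signals were 78.6, 82.3, 754.6 and 100.6, so LPS alone stood apart from the other 3 arrays. The additive value for SEA/LPS was 790.1, and the departure of -2.97 put the measured signal 7.85-fold below it. The other probe set of Stat2 read 24.6, 4.0, 211.9 and 66.5, at the floor without LPS, so its departure is not fixed. Il12b, the p40 subunit of IL-12 that IL-23 also uses, read 30.8, 34.7, 1826.7 and 271.1, with LPS alone highest and SEA/LPS between it and the arrays without LPS. Its departure was at most -2.81, which is at least 7.02-fold below additivity. Its other probe set read 12.3, 16.4, 641 and 134.3, again at the floor without LPS. Gadd45b, a stress gene induced by NF-kappaB, read 713.6, 567.1, 3665 and 663.3. SEA/LPS here lay at the level of the arrays without LPS. The departure was -2.13, against a mean of -1.04 over the gene's other probe sets.

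Il6, Cxcl1 and Rgs1 had another shape, with SEA above MEDIA and SEA/LPS below LPS. Il6, an acute-phase and T cell cytokine, read 42.3, 139.5, 5389 and 2969.5. SEA was 1.72 above MEDIA in log2 signal and SEA/LPS 0.86 below LPS, a departure of -2.58. For Cxcl1, a neutrophil chemoattractant, the signals were 77.2, 186.7, 4491.1 and 2120.6. SEA differed by 1.27 without LPS and by -1.08 with it, giving -2.36. Rgs1, a brake on G protein signalling of chemokine receptors, read 122.1, 287.4, 595.5 and 308.2 for a departure of -2.19. In these 3 genes both LPS arrays were above both arrays without LPS, and the order of the SEA arrays turned between the pairs.

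Several of the 15 lowest genes had SEA/LPS as the lowest of the 4 arrays. Rabac1, a regulator of Rab membrane association, read 1389.5, 1335.7, 1223.5 and 261.5, so SEA/LPS alone was low, with a departure of -2.17. Rrp7a, a ribosome biogenesis gene, read 128, 173.6, 257.2 and 73.0 (-2.26). Lipe, the hormone-sensitive lipase, read 139.2, 216.3, 241.4 and 85.6 (-2.13). The SEA/LPS array was the lowest of the 4 for all 3 genes. Cyp4f13, a cytochrome P450, read 65.2, 131.3, 115.9 and 50.1, for a departure of -2.22. Msgn1 and Stk16 gave -2.18 and -2.15. Sars and Zfyve21 gave -2.30 and -2.29. The other probe set of Sars gave -0.27, and that of Zfyve21 was at the floor on 3 arrays. D8Ertd738e gave -2.27 and turned to at least 0.92 when probe sets with shared sequence were left out.

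The highest departures came mainly from genes with a low LPS signal. Rusc1 read 455, 600.3, 65.5 and 567.8, with LPS alone low and a departure of 2.72. Its direction was that of a single probe set: the mean of all probe sets gave -0.059, and without shared-sequence probe sets the value was at most -0.63. Idh1, the cytosolic isocitrate dehydrogenase, read 2390.4, 1901, 133.9 and 446.3, a departure of 2.07, while its other probe set gave -0.30. Both arrays with LPS lay under both without it. Zdhhc12, a palmitoyltransferase, read 217.4, 208.2, 43.4 and 164.8, a departure of 1.99. Olfm1, a secreted olfactomedin, read 799.1, 612.8, 106.8 and 320.5, a departure of 1.97, and the other probe set above the floor throughout gave 1.25. For both genes SEA/LPS lay between LPS and the arrays without LPS.

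Pom121, a nuclear pore membrane protein, read 348.6, 302.5, 210.4 and 665.9. SEA/LPS was the highest array, the departure was 1.87 and the other probe set gave 1.04. Clec5a, a myeloid lectin receptor that signals through DAP12, read 187.6, 138.1, 102.8 and 275.8, again highest with both agents, for a departure of 1.87. Klf10, a TGF-beta-inducible repressor, read 216.3, 133.8, 62.7 and 139.8 (1.85). Cysltr1, a leukotriene receptor, read 97.7, 66.7, 34.4 and 76.1 (1.70). In both, MEDIA was the highest array and LPS the lowest. Crhr1, Sh3gl2, Yars, Rnasek, BC005624, Camk2d and Ppp1r12c had departures of 1.71 to 1.88. Other probe sets of Crhr1, Sh3gl2 and BC005624 that were above the floor throughout gave -0.85, -0.13 and -0.30, below 0.

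**Figure D2:**
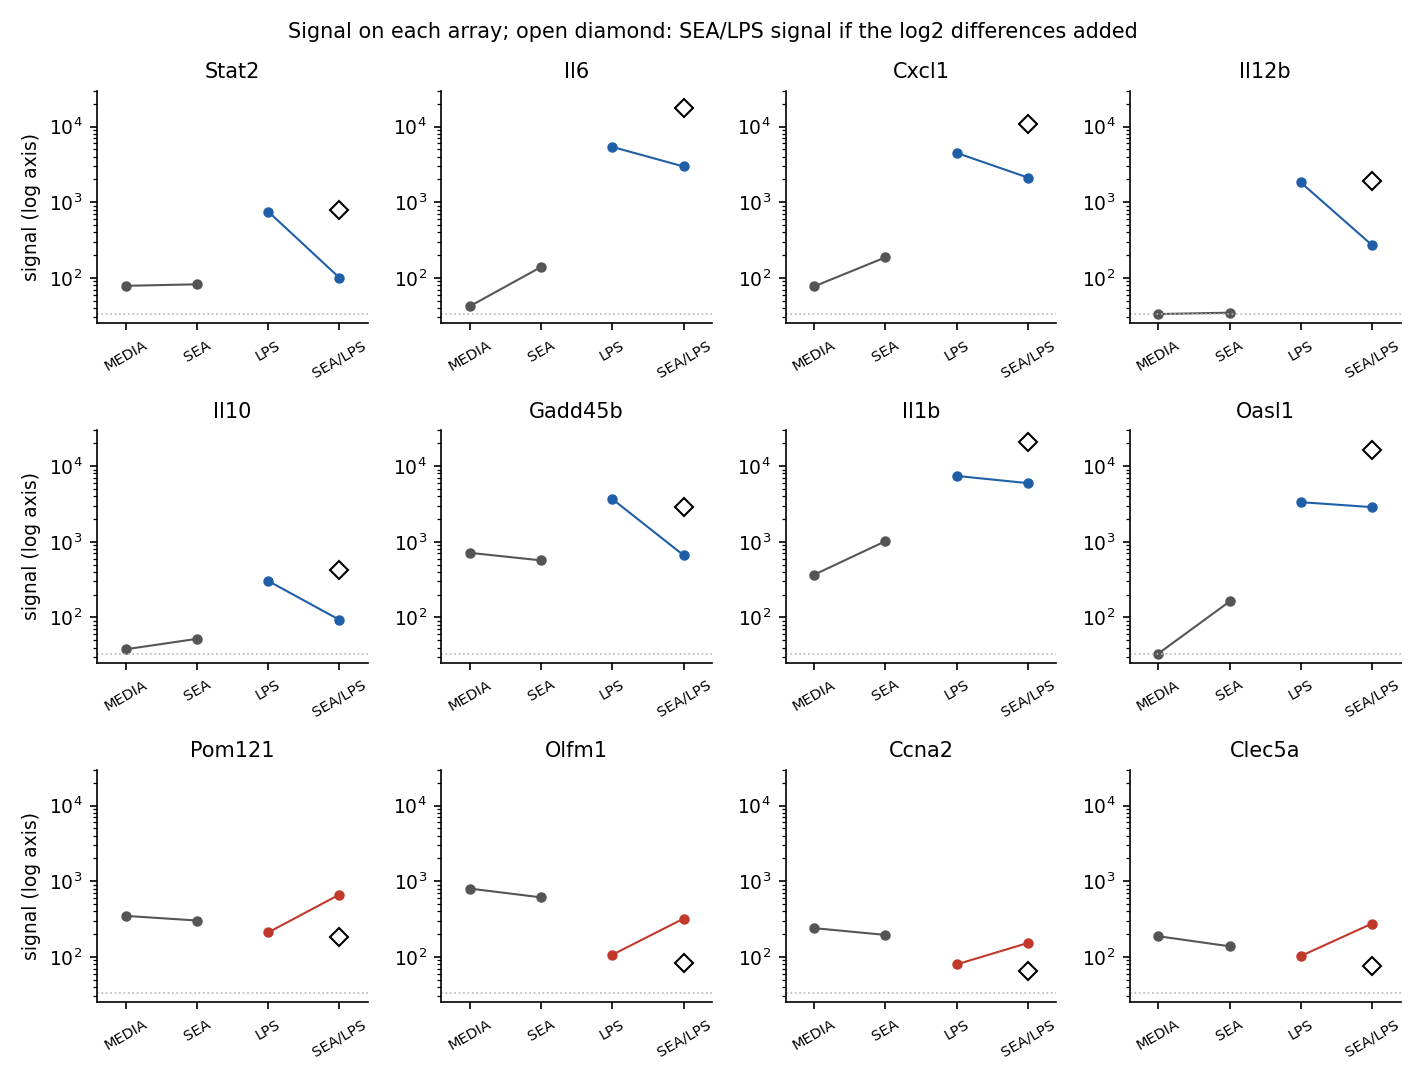
Signal on each array (log axis) for 8 genes counted lower and 4 counted higher, with lines joining MEDIA to SEA and LPS to SEA/LPS, the dotted line at the floor of 33.3 and an open diamond at the additive value. Stat2, Il12b and Gadd45b lie far below their diamonds with SEA/LPS below LPS, while the diamonds of Il6, Cxcl1, Il1b and Oasl1 rise with the SEA signal.

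The 5 brightest genes counted higher through a limit had LPS signals under the floor. Slc1a5, a glutamine transporter, read 259.2, 193, 19.8 and 81.7, a departure of at least 1.72. Crcp, Clip4, Sh3bp1 and Abca3 gave at least 2.71, 2.35, 1.28 and 1.20, but Clip4 turned to at most -0.48 without shared-sequence probe sets. On the lower side, Oasl1, an interferon-induced OAS-like protein, read 20.1, 162.3, 3336.3 and 2867.7, a departure of at most -2.50. SEA alone separated from MEDIA here, and both LPS arrays were near each other. Phgdh, the first enzyme of serine synthesis, read 140.3, 221.1, 138.1 and 29.8 (at most -2.71), and its other probe sets had floored signals that leave their departures open or a limit. Rce1, a protease that processes prenylated proteins, gave at most -1.88. Zc3h12a, a ribonuclease that degrades cytokine mRNAs, gave at most -1.15.

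The threshold itself cut through closely spaced values. Sult1a1 and Il17rd stood just inside it at -1.003 and -1.002, and Tssk1 and Vars just outside at -0.9996 and -0.9993. On the higher side Prkaca and Chka were inside at 1.002 and 1.003, and Mdk and Fzd7 outside at 0.9993 and 0.9995.

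Counted genes fell into 3 shapes by their SEA differences without and with LPS. Of the 587 lower genes, 346 (58.9%) had the larger SEA difference with LPS, as Stat2 and Il12b did, with medians of 0.20 without and -1.06 with LPS. A further 148 (25.2%) had SEA differences of at least 0.5 in both pairs with opposite signs, as Il6 did, and 93 (15.8%) had the larger difference without LPS, as Il1b did. Of the 282 higher genes, 174 (61.7%) had the larger difference with LPS, 57 (20.2%) had opposite signs and 51 (18.1%) had the larger difference without LPS. In the last 51 the medians were -0.84 without LPS and 0.34 with it. Ddit4, an mTORC1 inhibitor of this kind, read 242.6, 85.8, 50.5 and 49.0, so SEA lay far below MEDIA while SEA/LPS lay level with LPS.

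Departures ran against the LPS difference. Genes were called LPS-high or LPS-low when the mean of LPS and SEA/LPS was at least 2-fold above or below the mean of MEDIA and SEA, a contrast from the same 4 arrays. The 430 LPS-high genes had a median departure of -0.23, with 54 (12.6%) counted lower and 7 (1.63%) higher. The 519 LPS-low genes had a median of 0.26, with 66 (12.7%) counted higher and 19 (3.66%) lower. The 8524 genes between had a median of -0.06, with 6.03% lower and 2.45% higher. Under the hybridisation control scaling the LPS-high median was 0.03 against 0.22 for all genes, so it stayed below that of all genes but not below 0. Among LPS-high genes counted lower, 10 of 42 with a promoter entry (23.8%) held a kappaB match, against 50 of 341 LPS-high genes (14.7%). For the response element core it was 2 (4.76%) against 36 (10.6%). The 42 genes are part of the 341, and a link between motif and departure was not tested.

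The IL-12 family had the lowest median of the lists, at -2.31 over 4 measured subunits. These subunits pair to form IL-12, IL-23, IL-27 and IL-35, which steer T helper cells. Il12b, Ebi3 and Il12a were counted lower, 3 of 4, where 6.2% of all genes were. Il12b and Il12a lay close to the floor without LPS, and with the floor at the 60th percentile, scaling to the 75th percentile or quantile normalization 1 of the 4 was counted. Ebi3, the beta subunit of IL-27, read 415, 434.6, 1406.9 and 417.3, with a departure of -1.82. Its SEA/LPS signal was at the level of the arrays without LPS. Il12a, the p35 subunit, read 36.2, 35.6, 114.2 and 53.8, a departure of -1.06. Il23a, the p19 subunit of IL-23, read 5.0, 5.4, 235.6 and 33.6 and is not counted, because MEDIA and SEA were both at the floor. With no SEA difference assumed there, its departure would be -2.81, and over all genes this assumption would count 285 higher (3.01%) and 610 lower (6.44%). SEA and MEDIA were close where both were measured, at 0.07 for Ebi3 and -0.02 for Il12a on the log2 scale, while with LPS the differences of the 4 subunits had a median of -2.25. Over the 2 subunits above the floor on all 4 arrays, Ebi3 and Il12a, the median was -1.44.

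At the settings used here, inflammatory cytokines followed with a median of -0.75 over 12 measured genes, 11 of them below 0. Il6, Il10, Il1b and Il15 were counted lower, 4 of 12 where 6.2% of all genes were, and none higher. Il1b, made as an inactive precursor that inflammasomes activate, read 366.7, 1016.2, 7411.5 and 5953.1. SEA was well above MEDIA while SEA/LPS was a little below LPS, for a departure of -1.79. Il15, a cytokine for NK cells and memory T cells named here after its value was seen, read 34.8, 68.6, 621.8 and 601 (-1.03). Il10, which this list also holds though it is anti-inflammatory, gave -2.17, with its SEA/LPS signal 4.49-fold below additivity. Ifnb1, interferon beta, read 37.3, 29.8, 129 and 51.4. It is not counted, because its SEA signal was at the floor, which leaves the value of -1.16 a lower limit. Members named after their values were seen include Tnf at -0.79, Il1a at -0.25 and Inhba, the activin A subunit, at 0.19.

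Among 12 measured CXC chemokines the median was -0.45, with Cxcl1 and Cxcl2 counted lower and 8 members below 0. Over all genes 6.2% were counted lower and 2.98% higher. Cxcl2, like Cxcl1 a ligand of CXCR2, read 1247.4, 2436.5, 7825.5 and 6263 (-1.29). The interferon-induced Cxcl10, named after its value was seen, read 178.6, 181.6, 6830.2 and 6365.6 and was near additive at -0.13. The 12 CC chemokines had a median of -0.39, 11 were below 0, and Ccl8, Ccl3 and Ccl4 were counted lower. Ccl3, an inflammatory chemokine, read 361.2, 402.9, 4578.1 and 2245.1 (-1.19). Ccl4 read 276.2, 337.6, 2174.4 and 1261.8 (-1.07). Both differed by SEA mainly under LPS. Ccl8 read 59.7, 104.7, 126.1 and 85.9 (-1.36). Of 10 chemokine receptors, Ccr2, a monocyte receptor, was counted higher with signals of 319.1, 277, 36.7 and 81.3 (1.35), and Cxcr3 lower (-1.14). The other Ccr2 probe set above the floor throughout gave -0.41. The receptor list had a median of -0.31. Some marker lists of other cells had medians as low as the chemokine lists. They were -0.58 for erythroid, -0.57 for fibroblast and endothelial, -0.46 for neutrophil and -0.45 for mast cell and basophil genes. T cell, B cell, plasmacytoid and NK cell lists had -0.29, -0.21, -0.20 and -0.10, and macrophage markers 0.18.

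Ligands and receptors of the IL-1 and TNF families were mixed. Il1rn, the IL-1 receptor antagonist, read 333.5, 452.4, 3227.2 and 1725.4, a departure of -1.34, and its other probe sets gave a mean of -1.86. It was the only counted member of 6 measured IL-1 family receptors and antagonists. In the TNF superfamily 3 of 13 genes were counted lower, where 6.2% of all genes were. Tnfsf4, the costimulatory OX40 ligand, read 95.6, 142.2, 420.7 and 244.4 (-1.36). Cd70, the ligand of CD27, read 46.6, 44.8, 135.5 and 62.5 (-1.06), and Fasl, a death ligand, gave at most -1.84. The median of the TNF list was 0.07, close to that of all genes, and its sign turned under 4 of the alternatives.

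**Figure D3:**
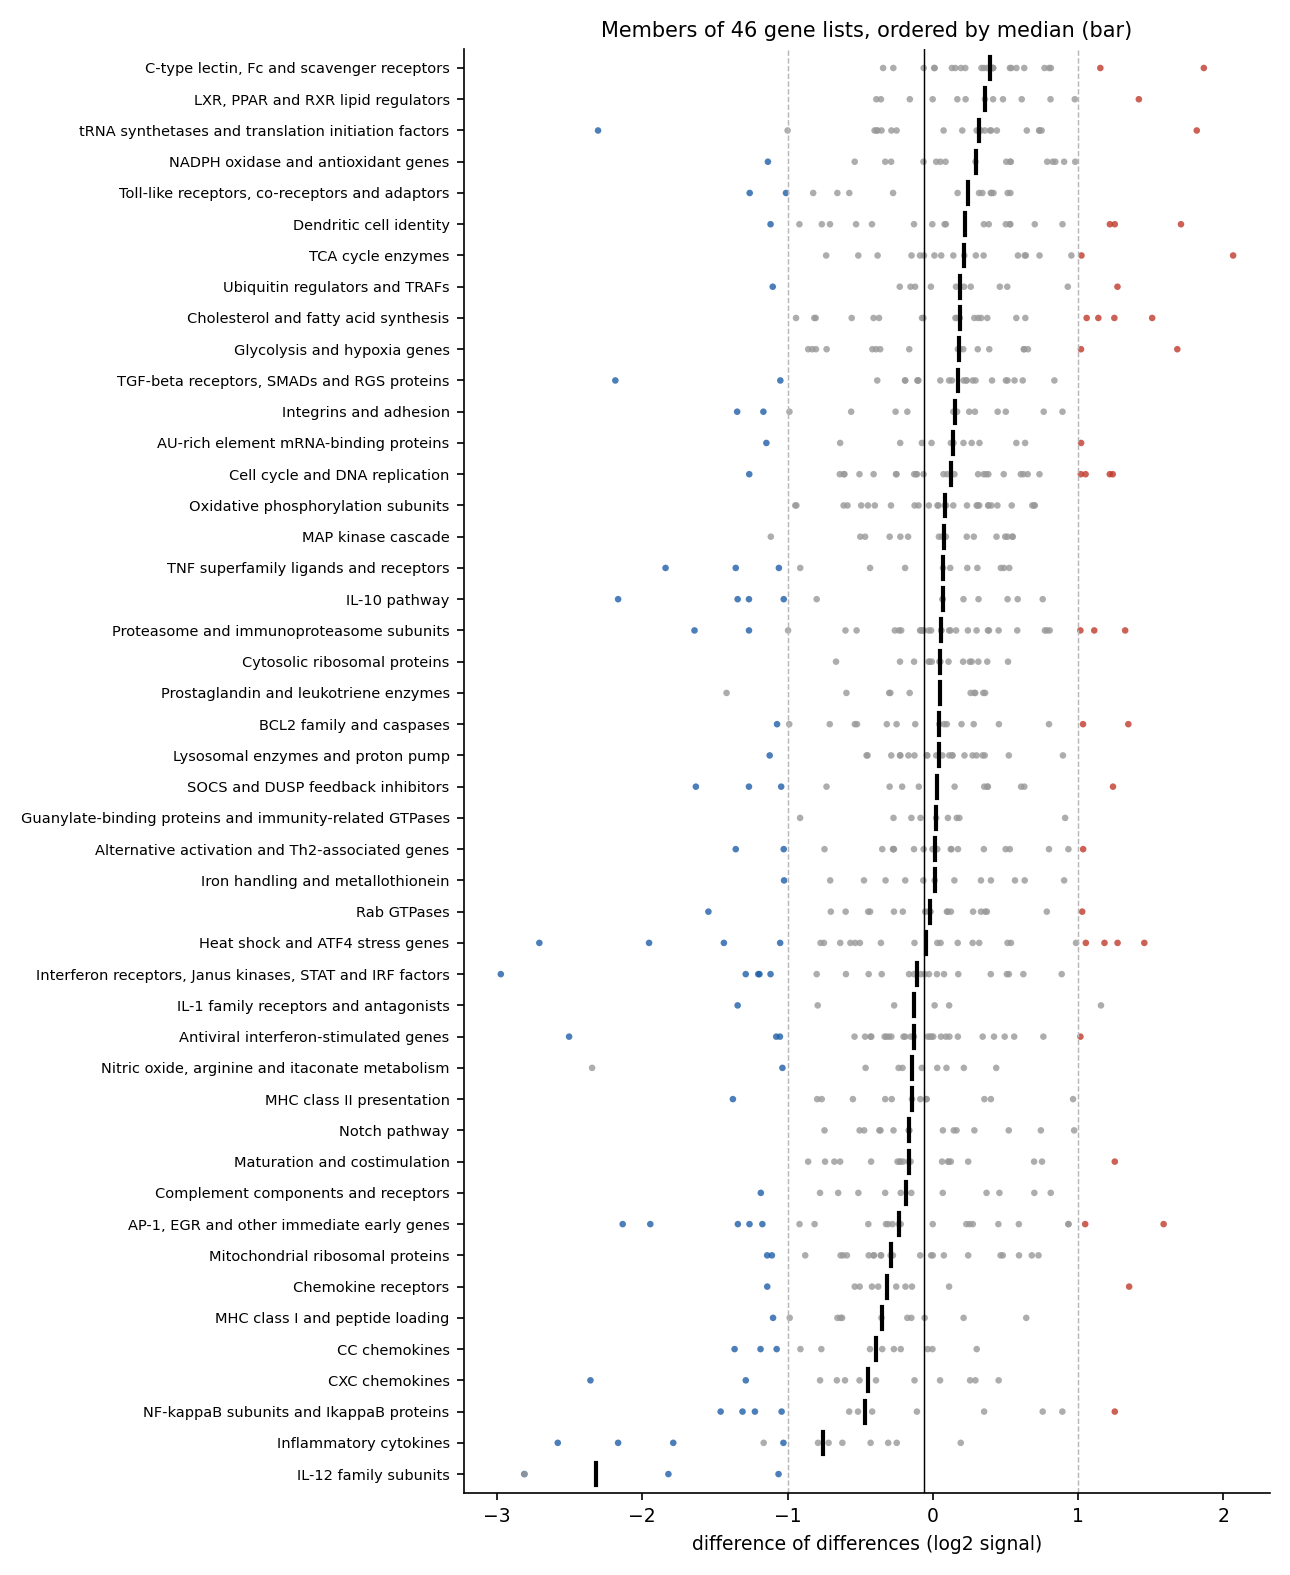
Departure (log2, horizontal) of every measured member of 46 gene lists, grey where not counted, blue where counted lower and red where counted higher; black bars are list medians and the solid vertical line the median of all genes at -0.06. IL-12 family subunits and inflammatory cytokines have the lowest medians (-2.31 and -0.75), and C-type lectin, Fc and scavenger receptors the highest (0.39). Marker lists of cells other than dendritic cells are not drawn.

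Interferon signalling genes included Stat2, with the largest departure among genes above the floor on all 4 arrays. Of 22 measured interferon receptors, Janus kinases, STAT and IRF factors, 5 were counted lower (6.2% of all genes were) and none higher, with a median of -0.11; with the hybridisation control scaling 1 was counted lower. Stat5a, a cytokine signal transducer, read 176.6, 120.6, 872.6 and 260.6 (-1.19), and its other probe set gave -2.76. Stat5b read 132, 129.7, 216.4 and 87.1 (-1.29), with -1.43 at the other probe set. Irf8, a factor of dendritic cell development that also drives Il12b, read 489.6, 530.6, 1911.3 and 955.2 (-1.12), with -1.40 at the other. In these 3 genes LPS alone was the highest array. Irf7, the amplifier of type I interferon, read 78.8, 137.5, 1058.3 and 803.2 (-1.20), and its SEA signal was above MEDIA.

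The median of 29 antiviral interferon-stimulated genes was -0.13, with Oasl1 and 2 others counted lower and 1 higher (6.2% and 2.98% of all genes were). Its median and that of the signalling genes were alike. With the hybridisation control scaling the antiviral median was 0.20, just below the 0.22 of all genes, and with linear additivity it lay above that of all genes and none was counted. Ifih1, the RNA sensor MDA5, read 189.7, 308.6, 5346.4 and 4120.9 (-1.08), and Cmpk2, a mitochondrial nucleotide kinase, 78.1, 85.6, 6486.5 and 3428.5 (-1.05). The other Cmpk2 probe set gave -0.40. Sp100, a nuclear body protein, was the gene counted higher (1.02). Of 9 guanylate-binding proteins and immunity-related GTPases none was counted. Gbp3 read 98.6, 124.4, 538.1 and 1276.7 (0.91) and Iigp1 52.4, 95.1, 704.6 and 679 (-0.91), which stood on either side of 0.

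Of 12 NF-kappaB and IkappaB genes, 4 were counted lower and 1 higher (6.2% and 2.98% of all genes were), with a median of -0.47. The erythroid and the fibroblast and endothelial marker lists had lower medians, as given above. Nfkb2, the p100 precursor of the non-canonical pathway, read 469.3, 416.3, 1444 and 465.5 (-1.46), and SEA/LPS was at the level of the arrays without LPS. Nfkbib, an inhibitor of NF-kappaB, had the same shape with 528.9, 333.5, 2044.8 and 551.8 (-1.22). Nfkbiz, a nuclear cofactor needed for Il6 and Il12b induction, read 51.9, 93.4, 897.6 and 651.6 (-1.31), with at most -1.05 at its other probe set. Rel, the c-Rel subunit, was named after its value was seen and read 74.8, 65.5, 448.7 and 191 (-1.04). Relb, the partner of p52, went the other way, with 474.7, 301.9, 413.1 and 626.1 (1.25) and its highest signal under both agents.

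Feedback regulators moved in both directions, where 2.98% of all genes were counted higher and 6.2% lower. Tnfaip3, the ubiquitin editor A20, read 91.5, 83.7, 448.8 and 191.3 (-1.10), while Tank, a TRAF-binding adaptor, read 137.4, 145.8, 199.6 and 511.2 (1.27), each the only gene of 12 ubiquitin regulators and TRAFs counted in its direction. Of 14 SOCS and DUSP inhibitors Dusp6, Socs3 and Socs4 (-1.04, named after its value was seen) were counted lower and 1 was higher. Dusp6, an ERK phosphatase, read 142.9, 222.7, 92.8 and 46.7 (-1.63). Socs3, an inhibitor of IL-6 receptor signalling, read 538.8, 975.5, 4195.5 and 3159.8 (-1.27), and turned to 0.16 without shared-sequence probe sets. Dusp3 was counted higher (1.24), although its other probe set gave -0.87. None of 16 MAP kinase cascade genes was counted.

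The LPS receptor genes departed in opposite directions. Cd14 read 1559.4, 3111.9, 5401.1 and 4499.5, with SEA above MEDIA and SEA/LPS below LPS, a departure of -1.26. Tlr4 read 195.4, 268.3, 105.9 and 210.6, with SEA above its partner in both pairs, and its departure of 0.53 was not counted. Tirap, the adaptor that brings MyD88 to TLR4, read 153.4, 178.1, 156.5 and 90.2 (-1.01). Cd14 and Tirap were the 2 genes counted lower among 14 Toll-like receptor, co-receptor and adaptor genes, where 6.2% of all genes were. The median of that list was 0.24.

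At the settings used here, uptake receptors had the highest median of the lists. It was 0.39 over 24 measured C-type lectin, Fc and scavenger receptors, 21 of them above 0. The counted members were Clec5a and Clec4a2, both higher, 2 of 24 where 2.98% of all genes were. Clec4a2, an inhibitory lectin of dendritic cells, read 1237.9, 1125.4, 433.1 and 875.7 (1.15). Mrc1, the mannose receptor, read 246.3, 203.1, 108.8 and 156.2 (0.80), and Stab1, a scavenger receptor, gave at least 0.81. LPS alone was the lowest array for all 3 genes. Clec7a and Msr1, named after their values were seen, gave 0.63 and 0.77. The list median stayed above 0 under every alternative run, between 0.32 and 0.72, but its rank did not hold. LXR, PPAR and RXR lipid regulators were higher with the floor at the 20th percentile (0.42 against 0.39) and the 60th (0.42 against 0.37).

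Medians of the MHC class I and class II lists lay below that of all genes under each alternative run. For class II the gap was small, at -0.01 with quantile normalization. H2-Ab1, an MHC class II beta chain, read 5558, 6114.1, 8108.7 and 3436.7 (-1.38), with SEA/LPS the lowest array, and its other probe sets gave a mean of -1.80. Tapbp, the class I loading factor tapasin, read 871, 804.8, 3862 and 1665.2 (-1.10), with -2.92 at the other probe set. H2-K1, a class I heavy chain, read 7262.1, 6400.6, 9023.1 and 4018 and was just short of the threshold at -0.98. The class I list had 9 of 11 members below 0 and a median of -0.35, and the class II list 10 of 13 and -0.14. Of all genes 54.4% were below 0. H2-Ab1 and Tapbp were the only counted genes of their lists, where 6.2% of all genes were lower and 2.98% higher. Psmb8, a catalytic subunit of the immunoproteasome, read 1476, 1163, 2894.7 and 731.7 (-1.64), with SEA/LPS again lowest. The 31 proteasome and immunoproteasome genes had a median of 0.06, above that of all genes. Of these Psmb4 was also counted lower (-1.27), though its other probe set gave -0.26. Psmc1, Psmb7 and Psmc3 were higher (1.32, 1.11 and 1.02, the last named after its value was seen).

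Maturation genes lay on both sides of 0, with a median of -0.17 against -0.06 for all genes. Among 19 maturation and costimulation genes only Relb was counted, where 2.98% of all genes were higher and 6.2% lower. Cd40, the receptor for T cell help, read 39.5, 46.1, 1224.1 and 788.2 (-0.86). Icam1, an adhesion ligand, read 1226.9, 929, 2126.3 and 2711.3 (0.75). The costimulators Cd80 and Cd86, named after their values were seen, gave -0.68 and -0.20, and both LPS arrays were above both others for each of these 4 genes.

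Effector enzymes of LPS-treated phagocytes could be described in part. Over all genes 6.2% were counted lower and 2.98% higher. Nos2, the inducible nitric oxide synthase, read 2.9, 2.6, 283 and 55.7. Ptgs2, the prostaglandin synthase COX-2, read 4.1, 16.7, 1459.4 and 545.5. At these probe sets both genes were at the floor without LPS, and with no SEA difference assumed there the departures would be -2.35 and -1.42. The dimmer probe set of Ptgs2 read 24.6, 42.1, 529.7 and 179.4, with SEA above the floor and a departure of at most -1.90. None of 10 prostaglandin and leukotriene enzymes was counted at the probe set used. Slc7a2, an arginine transporter and the only counted gene of 10 in the nitric oxide, arginine and itaconate list, read 402, 328.5, 2906.7 and 1159.1 (-1.04), and the other probe set above the floor throughout gave -0.45. Acod1, the itaconate-producing enzyme, read 2183.7, 2562.1, 8951.1 and 7620.7 and was not counted (-0.46). Of 17 NADPH oxidase and antioxidant genes only Ncf1, the oxidase subunit p47phox, was counted, at 1132.4, 1027, 807.1 and 333.3 (-1.14), with -1.60 at its other probe set. The rest of that list leaned upward, for a median of 0.29, with Nfe2l2, the regulator Nrf2, at 0.98 and its target Hmox1 at 0.90.

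The IL-10 pathway list had 4 of 12 genes counted lower, Il10, Il1rn, Socs3 and Il4ra, where 6.2% of all genes were, and none higher, and its median was 0.07. With linear signals taken to add, Il10 alone of these 4 stayed past 2-fold, and Il1rn, Socs3 and Il4ra came to -0.96, -0.55 and -0.90. Il4ra, the IL-4 receptor alpha chain, read 139.7, 187.5, 206.2 and 135.9 (-1.03). Its other probe sets differed, at 0.24 where all signals were above the floor and at most -3.65 where MEDIA and SEA/LPS were below it. Il10ra and Il10rb, named after their values were seen, were additive at 0.07 each. In the list of 20 alternative activation and Th2-associated genes, Tnfsf4 and Il4ra were lower and Klf4 was higher, with signals of 255.8, 222, 100.1 and 178 (1.03).

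Immediate early and stress genes held counted members on both sides, where 2.98% of all genes were higher and 6.2% lower. Of 23 AP-1, EGR and other immediate early genes 5 were lower (Gadd45b, Nr4a1, Fosb, Gadd45g and Egr1) and 2 higher (Jun and Klf2), with a median of -0.23. Gadd45g, Egr1 and Klf2 are named after their values were seen. Nr4a1, an orphan nuclear receptor, read 48.6, 92.7, 100.3 and 49.7 (-1.94), with the single-agent arrays both above the other pair. Jun read 896.3, 580.1, 211.8 and 412.4 (1.59), and its other probe set gave 0.65. Of 24 heat shock and ATF4 stress genes 4 were lower (Phgdh, Bag3, Atf4 and, named after its value was seen, Dnajb1) and 4 higher. Bag3, a co-chaperone, read 87.2, 220.4, 170.5 and 111.3 (-1.95). Atf4, the amino acid response factor, read 950.4, 932.3, 986.3 and 357.1 (-1.44), but its other probe set gave 0.00. Chac1, Ddit3, Slc7a5 and Ddit4 were the higher ones, the first 3 named after their values were seen, at 1.05 to 1.46.

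Lists of sterol synthesis, glycolysis, the TCA cycle, oxidative phosphorylation and lipid receptors had no gene counted lower. Over all genes 6.2% were counted lower and 2.98% higher. Of 21 cholesterol and fatty acid synthesis genes 4 were higher, with a median of 0.19. Msmo1, a sterol demethylase, read 228.1, 183.6, 61.7 and 118.1 (1.25), and Cyp51, the lanosterol demethylase, 82.8, 77.2, 59.5 and 115.6 (1.06). Pmvk and Mvd, enzymes of the mevalonate pathway, gave at least 1.14 and 1.51, but Mvd turned to -0.87 without shared-sequence probe sets. With the floor at the 60th percentile none of the 17 members left was counted. Of 18 glycolysis and hypoxia genes 2 were higher. Pdk1, the kinase that restrains pyruvate dehydrogenase, read 311.1, 276.9, 52.9 and 151.2 (1.68), with 0.23 at its other probe set. Vegfa, a hypoxia-responsive growth factor, read 669.2, 538.7, 812.9 and 1327.1 (1.02). Of 19 TCA cycle genes, Idh1 and Pdha1 were higher, and the mean of all probe sets turned Pdha1 from 1.02 to -0.058. None of 28 oxidative phosphorylation genes was counted. Rxrb, a partner of LXR and PPAR receptors, read 185.5, 69.9, 83.4 and 84.0 (1.42), with MEDIA alone high, and the 13 LXR, PPAR and RXR lipid regulators had a median of 0.36.

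Cell cycle genes were 4 higher and 1 lower of 28, where 2.98% of all genes were higher and 6.2% lower. Ccna2, a cyclin of S phase and mitosis, read 240.1, 195.3, 79.6 and 152.8 (1.24), and its other probe set gave 1.20. Mki67, a proliferation marker, read 116, 85.5, 83.8 and 143.7 (1.22). Cdk1, named after its value was seen, and Birc5 gave 1.02 and at least 1.05. Ccnd2, a cyclin of the G1 phase, read 785.6, 925.1, 6226.7 and 3054.3 (-1.26), and its 4 other probe sets above the floor throughout ran from -2.50 to -0.08. The list median was 0.12 and turned sign under 1 alternative. Of 15 cytosolic ribosomal proteins none was counted. Of 23 mitochondrial ribosomal proteins Mrpl37 and Mrpl9 were lower (-1.14 and -1.11).

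Dendritic cell genes held 3 counted higher and 1 lower of 20, where 2.98% of all genes were higher and 6.2% lower. Csf2rb, the shared receptor chain for GM-CSF, IL-3 and IL-5, read 3138.7, 2685.8, 1375.8 and 2740.6 (1.22). Runx3, a factor of dendritic cell and T cell programmes, read 155.8, 25.4, 174.8 and 122.1, at least 1.71, with SEA alone below the floor. Relb and Irf8 were described above. Itgax was not counted (0.50). Among markers of other cells, none of 9 macrophage, 8 neutrophil, 4 T cell, 5 NK cell, 4 erythroid and 6 fibroblast and endothelial genes was counted. Spib and Irf8 of 5 plasmacytoid markers, Ighm of 7 B cell markers, and Ms4a2 of 7 mast cell and basophil markers were lower, and Cpa3 of the mast cell list was higher. The other Ighm probe set above the floor throughout gave 1.54, against -1.14 at the probe set used. Summed macrophage marker signal ran from 17390.6 to 18567.9 over the arrays. Summed plasmacytoid marker signal was 878.5, 984.4, 3446.7 and 2414. It was mostly Irf8 (489.6, 530.6, 1911.3 and 955.2) and Bst2 (176.2, 203.1, 698.3 and 699.9). Summed neutrophil marker signal was 3241.2, 2979.5, 2191.9 and 2609.5. Of the neutrophil sum, Mmp8 alone gave 2762.2, 2429.1, 1533.9 and 2031.8. The part of these cells in the departures was not tested. In a bulk sample fewer cells of a type and less RNA per cell cannot be told apart.

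The scale on which the agents are taken to add bears on the genes that SEA alone lifted. When linear signals were taken to add, Stat2, Il12b, Gadd45b and Il10 kept departures of -2.91, -2.75, -2.41 and -1.77. Il6 came to -0.89, Il1b to -0.44, Cxcl2 to -0.53, Oasl1 to -0.27, Cd14 to -0.63, Irf7 to -0.48 and Ifih1 to -0.41, all still below 0 but short of 2-fold. Counted lower were then 1 of 12 inflammatory cytokines, 1 of 12 CXC and 1 of 12 CC chemokines and 3 of 12 NF-kappaB and IkappaB genes. With the hybridisation control scaling these counts were 3, 1, 1 and 1, over 11 CC chemokines. For 8 genes, among them Il1b (20538.8), Il6 (17772.2), Oasl1 (16260.7) and Cxcl2 (15285.3), the additive value exceeded 13904.4, the highest signal of any probe set on any array. Those 4 were counted lower. Whether the range of the array contributed to their departures was not tested.

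Departures shifted with signal strength. In 4 equal bins of the 7142 genes ordered by mean signal, from dim to bright, the medians were -0.24, -0.09, 0.04 and 0.11. The share counted lower was 10.6, 6.22, 3.7 and 3.14%, and the share counted higher 2.41, 4.09, 3.19 and 2.13%. The SEA/LPS array had the lowest median signal, 45.0 against 51.5 to 53.2, and 57.3% of its probe sets above the floor against 60.6 to 61.1%. Its part in these shares was not tested. The 18 hybridisation control probe sets, which report RNA added in fixed amounts, had a mean departure of -0.33 with an SD of 0.37, and 16 were below 0.

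**Figure D4:**
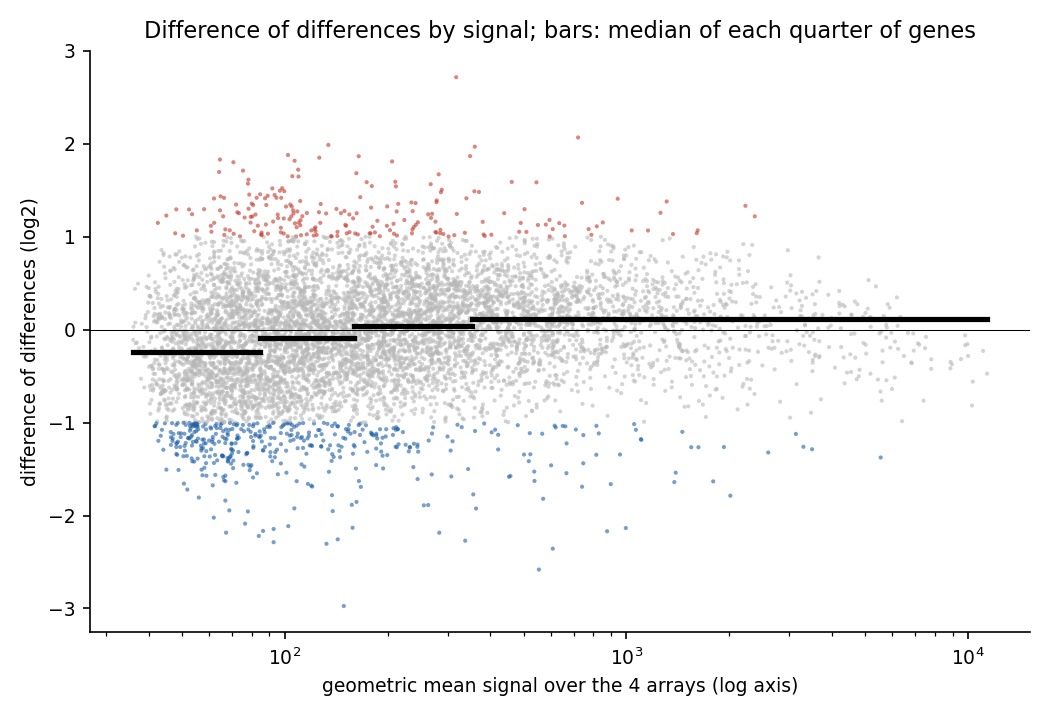
Departure (log2, vertical) against geometric mean signal over the 4 arrays (horizontal, log axis) for the 7142 genes above the floor on all arrays; black bars are the medians of 4 equal bins of genes. The medians step from -0.24 in the dimmest bin to 0.11 in the brightest, and blue points (counted lower) are densest at low signal.

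The other probe sets of a counted gene gave a further view, floored signals included. Of 149 genes counted lower with another measured probe set, 115 (77.2%) had a mean below 0 in the others, where 54.2% of all 3311 such genes did. Their median there was -0.42, and 36 were past -1. Of 103 counted higher, 58 (56.3%) had a mean above 0 in the others, where 45.7% of all did, with a median of 0.07 and 7 past 1. The order of the 2 shares turned with the hybridisation control scaling, to 75.6% of higher and 59.6% of lower genes. Counting only other probe sets above the floor on all 4 arrays, an alternative chosen after seeing the data, 62 of 80 lower genes (77.5%) and 41 of 73 higher genes (56.2%) had the same sign, against 51.0% and 49.0% of all 2249 such genes. By that count 23 lower and 7 higher genes were past 2-fold in both. The 23 included, chosen after their values were seen, Arpc4 (an actin nucleation subunit, -1.92 and -1.51 in the others) and Mdm2 (the p53 ubiquitin ligase, -1.34 and -1.86). The 7 were Pom121, Olfm1, Ccna2, Klf7, Gart, Fbxo9 and Lipa. Lipa, the lysosomal acid lipase, read 1604.8, 1204.1, 767.2 and 1205.7 (1.07 and 1.26), and Klf7, a zinc finger factor, 258.2, 182.4, 137.8 and 244 (1.33 and 1.34). Probe sets of a gene share the arrays and are not replicates.

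**Figure D5:**
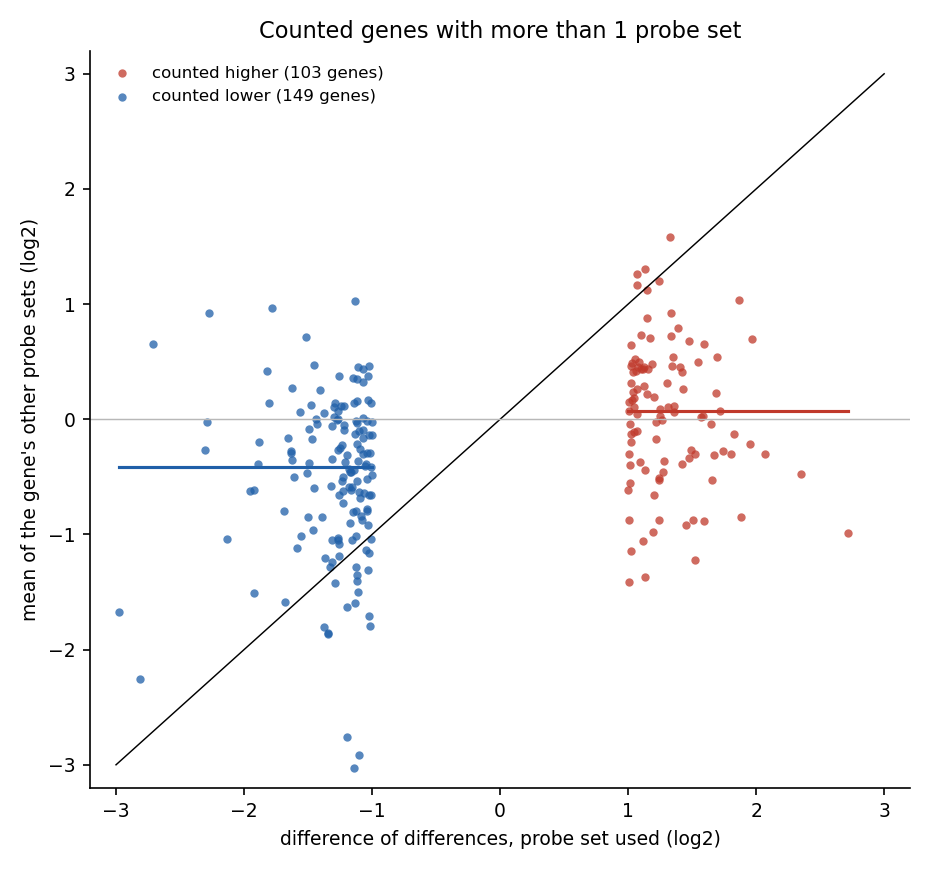
Mean departure of a gene's other probe sets (vertical, log2) against that of the probe set used (horizontal, log2) for the 149 genes counted lower (blue) and 103 counted higher (red) with more than 1 probe set, floored signals included; horizontal bars are medians and the diagonal marks equal values. The blue median is -0.42 and the red median 0.07.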

How the data were processed

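Per the labels, total RNA of 4 samples was measured, 1 per group. The authors deposited a series value table of array signals, read here as linear intensity; the sources used here do not state how the signals were made. Each column has a trimmed mean of 150.1 (2% trimmed at each end), so the columns had already been scaled. Gene symbols came from the platform annotation: of 22690 probe sets, 64 were controls, 20380 had 1 symbol, 691 several and 1555 none.

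The floor of 33.3 was the 40th percentile of the 4 columns pooled. Floored log2 signals gave the departure, computed with python 3.11.15, numpy 2.4.6 and pandas 2.3.3. The computation was checked on simulated data with a chosen noise, which does not gauge the error of the counted genes. No test was possible with 1 array per group; their number limits the precision. The members and the 55 gene lists (779 measured genes) were chosen with earlier results of these data known. Named genes are Il10, Tlr4, Cd14, the 15 largest departures either way among genes measured above the floor on all arrays, the 5 brightest genes per direction that were counted through a limit, and from each list no more than the 4 members departing most; others are marked. Alternatives changed the floor, scaling, probe set rule, dim-gene filter and scale of additivity; counting genes at the floor in MEDIA and SEA, centring on genes of like signal, and leaving out floored other probe sets, were chosen after seeing the data. Promoters were RefSeq's, build GRCm38.p6.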

Additional observations from a re-analysis of the deposited data

Results flagged for a closer look

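Cxcl1 and Cyp4f13 were the 2 genes above the floor on all 4 arrays whose SEA difference reached 2-fold in both pairs with opposite directions. For Cxcl1 the SEA difference was 1.27 without LPS and -1.08 with LPS, both in log2 signal. For Cyp4f13 it was 1.01 without LPS and -1.21 with LPS. The difference between the pairs was not tested, since each side rests on 1 array against 1.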

How the results depend on the processing

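Counts past 2-fold depended on the floor and the scaling. With the floor at the 20th percentile 698 genes were higher and 1346 lower, and at the 60th 132 and 198. Scaling to the hybridisation controls gave 751 and 222, additivity of linear signals 438 higher, and log2 of signal plus the floor 334 lower. Of the 587 lower genes, 583 were also counted with the 20th percentile floor, 423 after quantile normalization and 222 with the hybridisation controls. The share with the larger SEA difference under LPS was 50.1% of higher and 48.6% of lower genes at the 20th percentile floor, and 69.2% of lower genes at the 60th. The share whose other probe sets had the same sign was 75.6% of higher and 59.6% of lower genes with the hybridisation controls, and 64.4% of lower genes at the 20th percentile floor. List medians minus that of all genes moved for IL-12 subunits (-1.72 at the 60th percentile floor, -1.42 for genes above the floor on all arrays), T cell markers (0.27 and 0.28 under the same settings) and plasmacytoid markers (-1.04 at the 20th percentile floor, -0.73 with log2 of signal plus the floor, -0.64 for genes above the floor on all arrays). Without shared-sequence probe sets, D8Ertd738e turned to 0.92, Rusc1 to -0.63, Clip4 to -0.48, Socs3 to 0.16 and Mvd to -0.87. The mean of all probe sets turned Rusc1 to -0.059 and Pdha1 to -0.058. The cause was not tested. The other 680 values for counts, shares and lists stayed within their tolerance, which was wide. Within it, 371 genes were higher and 429 lower with quantile normalization, and 193 were higher with log2 of signal plus the floor. Minus the median of all genes, that of integrin and adhesion genes ran from -0.27 to 0.36 over the alternatives. Of the values of single named genes, 26 in 19 genes changed sign, of which the 7 above belonged to genes counted higher or lower. No paired analysis was possible because each group had 1 sample, and for the same reason no sample could be left out. Low signals also limit the reading: 75.4% of genes were above the floor on all 4 arrays.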

Other observations

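Vesicle, adhesion and survival genes held counted members on both sides, where 2.98% of all genes were higher and 6.2% lower. Rab32, a GTPase of lysosome-related organelles, read 326.4, 571.4, 1330.9 and 798.7 in MEDIA, SEA, LPS and SEA/LPS, a departure of -1.54, and Rab10, which carries TLR4 to the surface, read 1155.6, 895.8, 1463.8 and 2314.3 (1.03). They were the counted genes among 20 Rab GTPases. Cd81, a tetraspanin, read 785.1, 846, 1255.5 and 532 (-1.35), and Itgal, the LFA-1 alpha chain, 89.2, 95.2, 137.3 and 65.3 (-1.17), both lowest with both agents and the counted genes of 14 integrin and adhesion genes. Ctsz, a lysosomal cathepsin, read 2652.4, 3024.1, 4787.9 and 2506.7 (-1.12), the only counted gene of 22 lysosomal genes. The death regulators Pmaip1 and Bid were higher (1.35 and 1.03) and the survival gene Bcl2l1 lower (-1.07) among 17 BCL2 family and caspase genes. None of 16 Notch pathway genes was counted. C5ar1, the C5a receptor, was lower (-1.18) among 12 complement genes, and Slc30a1, a zinc exporter, lower (-1.02) among 13 iron and metallothionein genes.

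mRNA-binding and translation genes were likewise mixed, where 2.98% of all genes were higher and 6.2% lower. Elavl1, the stabilising protein HuR, read 428.7, 236.5, 480.5 and 537.9 (1.02), with SEA alone low, and Zc3h12a was counted lower, of 13 AU-rich element binding proteins. Of 23 tRNA synthetases and initiation factors, Yars was higher, at 177.3, 156.8, 38.8 and 120.9 (1.82), and Sars lower. Rgs1 and Rgs16 were lower among 22 TGF-beta receptor, SMAD and RGS genes, at -2.19 and at most -1.05.

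Genes at the floor in both MEDIA and SEA could not be counted by the rule used, and counting them with no SEA difference assumed added 3 higher and 23 lower genes. Besides Il23a, Nos2 and Ptgs2 (the last at its brighter probe set), the lower ones included, chosen after their values were seen, U90926, with 3299.7 under LPS and 1430.1 under SEA/LPS, and Edn1, the endothelin 1 precursor, with 223.5 and 50.5. Under this rule 65 of the 430 LPS-high genes were lower, against 54.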
